A study of Mus musculus with 6 samples.

Results

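The genes described here encode the transport machinery and the gate of the cilium: the intraflagellar transport (IFT) complexes A and B with their motors, the BBSome with its assembly factors, and the transition zone. They were chosen by name, as genes used by primary and motile cilia alike. No cut on their values was applied, but earlier results of these data were known when they were chosen. Of 43 listed genes, 40 had a probe set annotated to that gene alone, among 18193 genes so represented. The expression of Arl6, Rpgrip1l and Arl13b was not analysed here.

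Total RNA from mouse uterine horns, without the cervix, was hybridised to an Affymetrix Mouse Genome 430 2.0 array. The SF1 group (3 arrays) came from C57BL6J mice of genotype Pgrcre/+ SF1LsL/+, and the control group (3 arrays) from mice of genotype SF1LsL/+. Both groups thus carried the SF1LsL/+ allele, a conditional transgene for the nuclear receptor SF1, and the Cre allele at the locus of the progesterone receptor gene Pgr was in the SF1 group alone. By design Cre acts in cells that express Pgr. Effects of SF1, of Cre and of the altered Pgr locus cannot be told apart in this comparison. Each array held RNA pooled from 2 uteri, taken 2 weeks after a surgery. The sources used here name neither the kind of surgery nor the age of the mice.

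A cilium is built and kept by trains of IFT proteins that move along its microtubules. Kinesin-2 motors carry the trains towards the tip with IFT-B, dynein-2 carries them back with IFT-A, and the BBSome, a coat-like complex, rides on them to move membrane proteins such as receptors. The transition zone at the base of the cilium controls what enters and leaves. Most cells of a tissue have a single primary cilium, which takes part in Hedgehog signalling, whereas multiciliated epithelial cells carry many motile cilia. In mammals, transcription factors of the RFX family bind a DNA element called the X-box in promoters of many ciliary genes.

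To show this element, the promoter windows of RefSeq (build GRCm38.p6, 250 bases before to 50 bases after each gene's start) were searched for an inverted repeat made of GTTNC and GNAAC with 4 or 3 bases of any kind between them. Both forms read the same on the 2 strands. Of the listed genes, 38 had a window, and 7 of these (18.4%) held a match, against 2.29% of all 27025 genes with a window. The matches follow, 5′ to 3′ on the gene's strand, with the matched letters in capitals and up to 8 flanking bases on each side.
Ift57, chr16:49699226-49699254 (+): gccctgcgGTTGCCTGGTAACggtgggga
Tctn1, chr5:122264411-122264432 (-): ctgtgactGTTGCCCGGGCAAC
Tctn3, chr19:40612351-40612379 (-): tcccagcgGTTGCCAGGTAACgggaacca
Bbs7, chr3:36613489-36613518 (-): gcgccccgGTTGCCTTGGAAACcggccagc
B9d2, chr7:25680788-25680817 (+): aacctgctGTTGCCCCAGCAACagtcgggg
Mks1, chr11:87853183-87853212 (+): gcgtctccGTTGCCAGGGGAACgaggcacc
Kif17, chr4:138262170-138262198 (+): tcacggagGTTGCCCAGCAACggcgaacg
The matches of Tctn1 and B9d2 began 37 and 17 bases into the transcribed part. The other matches began 60 (Ift57), 140 (Tctn3), 121 (Bbs7), 24 (Mks1) and 73 (Kif17) bases before the start. Ift57, Tctn1 and Tctn3 rose in SF1, as described below, and the other 4 were not called. A match thus stood in 3 of 14 risen members with a window and in 4 of 21 members that were not called. With the looser arms GTNNC and GNNAC at the same spacings, 9 of the 14 and 7 of the 21 held a match, against 14.5% of all genes. A match describes letters and no binding, and its absence says only that these letters are not in this window. The 250 bases before the start of 2 risen members show the element in its setting.
Ift57, chr16:49699044-49699293 (+): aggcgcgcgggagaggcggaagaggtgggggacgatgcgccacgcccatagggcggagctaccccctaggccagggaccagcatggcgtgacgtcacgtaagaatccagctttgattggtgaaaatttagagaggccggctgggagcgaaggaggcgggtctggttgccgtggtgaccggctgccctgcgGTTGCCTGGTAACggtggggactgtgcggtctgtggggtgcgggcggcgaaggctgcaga
Tctn3, chr19:40612232-40612481 (-): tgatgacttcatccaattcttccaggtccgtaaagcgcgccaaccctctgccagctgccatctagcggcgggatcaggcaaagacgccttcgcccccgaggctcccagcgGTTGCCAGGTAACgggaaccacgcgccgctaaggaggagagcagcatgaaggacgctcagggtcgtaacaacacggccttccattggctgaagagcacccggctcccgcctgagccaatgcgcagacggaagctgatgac

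The arrays were alike in brightness, with median intensities between 149.9 and 159.6 in SF1 and between 159.0 and 162.2 in control. Each array correlated more with its own group (mean r 0.9888 to 0.9925 across probe sets) than with the other group (0.9672 to 0.9761). Nr5a1, the gene of SF1, read 151 on each SF1 array, against 139, 172 and 145 in control (0.00, interval -0.21 to 0.21). Whether that probe set covers the transgene could not be told, so its level is no check of the labels. Esr1, the estrogen receptor gene and a marker of uterine tissue, read at least 7466 intensity units on every array. RNA quality, read as the 3′ to 5′ signal ratio of beta-actin, gave 2.12 to 2.34 in SF1 and 2.38 to 2.58 in control, and the part of this difference in the results was not tested. The same ratio of Gapdh overlapped between the groups, at 1.47 to 1.66 in SF1 and 1.53 to 1.7 in control. Differences were tested with limma on log2(intensity + 16), and a gene is called here at a Benjamini-Hochberg adjusted p under 0.05 over all probe sets. All adjusted p-values below are from that fit, and changes are SF1 minus control on that scale, which understates the change of dim genes. Standard errors (±) and 95% intervals are from the same fit, with n = 3 arrays per group.

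Cilium transport and transition zone genes rose in part in the SF1 uteri, with each estimate below 2-fold on the log2(intensity + 16) scale. Of the 40 measured members, 15 were called higher (37.5%) and 0 lower, and 25 were not called. Over all 18193 genes, 8.45% were called higher and 8.11% lower. At an unadjusted p under 0.05 (limma), 20 members were higher and 1, Kif3a, lower, against 13.7% and 18.4% of all genes. The median change of the members was 0.24 on the log2 scale, against -0.05 over all genes, and 33 of 40 members had a change above 0 (82.5%), against 39.4% of all genes. All 3 SF1 arrays lay above all 3 control arrays for 23 members, a pattern seen in 16.3% of all genes. With each array centred on its median, 63% of all calls were higher instead of 51%, and 16 members were called higher. Uterine RNA is a mix of cell types, in which more cells of a type and more RNA per cell cannot be told apart.

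**Figure D1:**
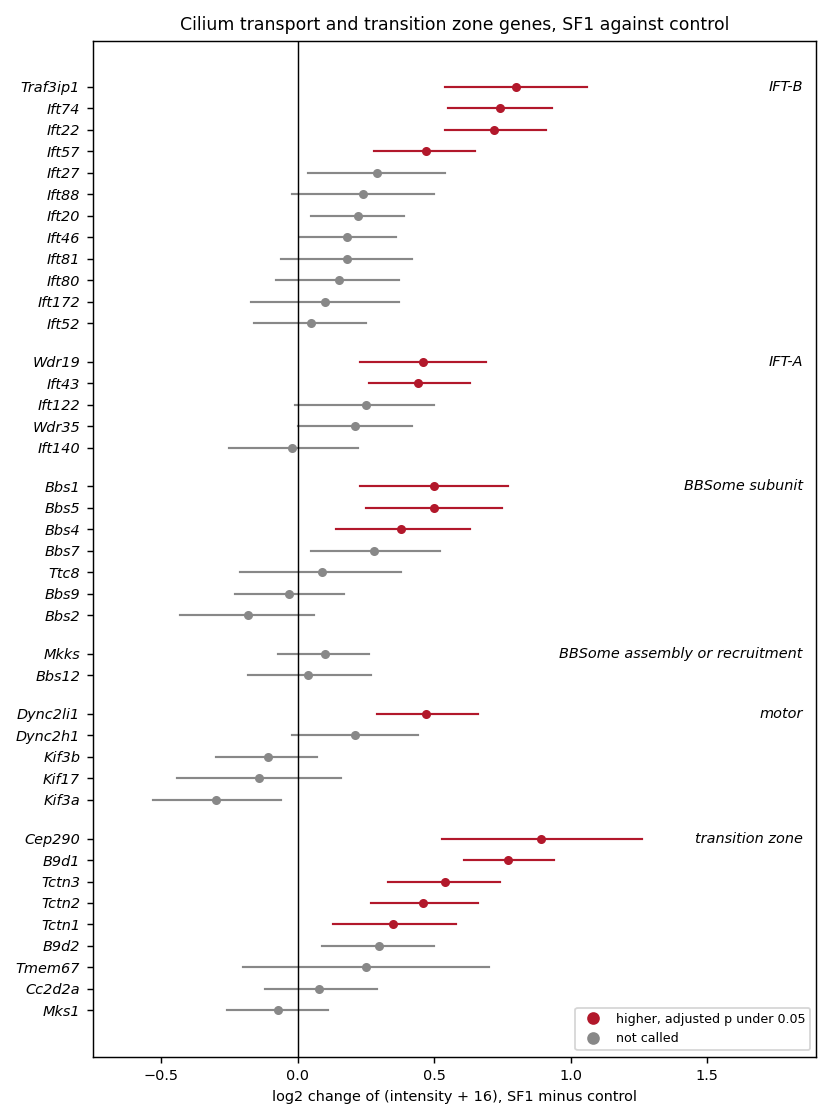
Change of each of the 40 measured members, as SF1 minus control on the log2(intensity + 16) scale, by role. Points are limma estimates from 3 arrays per group and bars are 95% intervals. Red marks the 15 members called higher, from Tctn1 at 0.35 to Cep290 at 0.89, and grey those not called.

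Among the IFT-B genes, 4 of 12 rose, and all 12 estimates were above 0 (Ift52 was at -0.02 without SF1 replicate 3). Traf3ip1, which encodes the microtubule-binding subunit IFT54, read 607, 489 and 660 intensity units in SF1 replicates 1 to 3, against 340, 338 and 305 in control replicates 1 to 3. It had the largest change of the complex, 0.80 ± 0.12 (SE; adjusted p = 0.00246), a fold of 1.74. Every SF1 array was above every control array, and the lowest SF1 value was that of replicate 2.

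Ift74 encodes a coiled-coil subunit that pairs with IFT81 to bind tubulin. It read 745, 655 and 733 in SF1, against 432, 403 and 422 in control, a change of 0.74 ± 0.08 (adjusted p = 0.000587). Ift22, whose product is a small GTPase-like protein bound to the IFT74 and IFT81 pair, read 428, 396 and 445 in SF1, against 237, 252 and 261 in control. Its change was 0.72 ± 0.08 (adjusted p = 0.000625). Ift57, an outer subunit of the complex, read 1025, 1042 and 1179 in SF1, against 794, 768 and 773 in control (0.47 ± 0.08; adjusted p = 0.00689). The groups were separate for all 3 of these genes. A second, dimmer probe set of Ift57 had a change of -0.10 (adjusted p = 0.549), and the mean of both had 0.18 (adjusted p = 0.0978).

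Other subunits of the same complex were not called. The largest change among them was that of Ift27, a Rab-like GTPase gene that in mouse serves BBSome exit from cilia, with 820, 716 and 825 in SF1, against 560, 728 and 637 in control (0.29; adjusted p = 0.116). Those ranges overlapped. Its dimmest probe set was called higher, at 0.42 (adjusted p = 0.0102), while the 2 brighter ones carry the suffix of probe sets that may bind similar transcripts. Ift88, named polaris in the mouse and the gene of a classical ciliary mutant, had 0.24 (interval -0.02 to 0.50). Ift172, the gene of the largest subunit, had 0.10 (-0.17 to 0.37), Ift52 0.05 (-0.16 to 0.25) and Ift80 0.15 (-0.08 to 0.37). The intervals of Ift52 and Ift172 leave out changes as large as the estimates of Ift22, Ift74 and Traf3ip1. Ift20 (0.22), Ift46 (0.18) and Ift81 (0.18) lay in between.

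IFT-A, the complex of return transport and of receptor entry, had 2 risen genes among 5. Ift43, its smallest subunit, read 895, 918 and 1000 in SF1, against 688, 713 and 656 in control (0.44 ± 0.08; adjusted p = 0.00777). Wdr19, which encodes IFT144, read 617, 487 and 586 in SF1, against 399, 425 and 384 in control (0.46 ± 0.10; adjusted p = 0.0191). Both genes had separate groups, and the second probe set of Wdr19 was also called higher (0.31; adjusted p = 0.0346). The Wdr19 call did not hold in 4 fits on 5 arrays, those without SF1 replicate 1 or 3 or control replicate 1 or 3 (highest adjusted p over all alternatives 0.072). Ift122 read 739, 604 and 807 in SF1, against 601, 630 and 563 in control (0.25; adjusted p = 0.183). Wdr35 had 0.21 and Ift140 -0.02 (interval -0.25 to 0.22).

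Of the 7 BBSome subunit genes, 3 rose and 4 were not called. Bbs1, the subunit that binds the membrane-recruiting GTPase ARL6, read 365, 297 and 403 in SF1, against 246, 264 and 223 in control (0.50 ± 0.12; adjusted p = 0.0255). Bbs5, a subunit with lipid-binding domains, read 378, 372 and 438 in SF1, against 285, 304 and 239 in control (0.50 ± 0.11; adjusted p = 0.0173). Bbs4 read 435, 349 and 447 in SF1, against 326, 313 and 291 in control (0.38 ± 0.11; adjusted p = 0.047). The groups did not overlap for these 3 genes, but each lost its call when some arrays were left out. That of Bbs1 was lost in 4 fits that left out 1 array (without SF1 replicate 1 or 3 or control replicate 1 or 3), that of Bbs4 in 5 (all but the one without SF1 replicate 2) and that of Bbs5 in 1 (without SF1 replicate 3). The highest adjusted p-values of Bbs1, Bbs4 and Bbs5 over all alternatives were 0.0878, 0.187 and 0.061, that of Bbs4 with the mean of its probe sets (0.21). None of the other Bbs4 probe sets was called, at 0.39 (adjusted p = 0.0709), 0.34 (0.175) and -0.26 (0.0773).

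The remaining subunit genes differed in sign. Bbs7, a subunit of the core with Bbs2 and Bbs9, read 274, 282 and 339 in SF1, against 242, 262 and 221 in control (0.28; adjusted p = 0.108), with the groups just apart. Bbs2 had a change of -0.18 (interval -0.43 to 0.06), Bbs9 -0.03 (-0.23 to 0.17) and Ttc8, which encodes BBS8, 0.09 (-0.21 to 0.38). Of the genes for assembly, Mkks, a chaperonin-like gene, read 725, 753 and 738 in SF1, against 676, 718 and 675 in control (0.10; adjusted p = 0.405). Bbs12, a second gene of that kind, had 0.04 (interval -0.18 to 0.27).

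Of the 5 motor genes, 1 rose. Dync2li1, which encodes the light intermediate chain of dynein-2, read 1200, 1161 and 1191 in SF1, against 817, 919 and 814 in control (0.47 ± 0.08; adjusted p = 0.00564). Its 3 SF1 values lay close together and well above the control values. Dync2h1, the heavy chain gene, had 0.21 (interval -0.02 to 0.44). None of the 3 kinesin-2 genes was called, and all 3 estimates, each from the brightest probe set, were below 0. Kif3a, a motor subunit needed for cilium formation in mouse, read 511, 441 and 546 in SF1, against 665, 609 and 573 in control (-0.30; adjusted p = 0.09). It was the single member whose SF1 arrays all lay below the control arrays, a pattern seen in 23.7% of all genes, and its 3 dimmer probe sets had changes between -0.09 and -0.01. Its partner gene Kif3b had -0.11 (interval -0.30 to 0.07), and Kif17, a homodimeric kinesin-2, -0.14 (-0.44 to 0.16). The 3 dimmer probe sets of Kif3b had changes between 0.05 and 0.26, and those of Kif17 had -0.10 and 0.24, none of them called. For Kif3b and Kif17 the mean of all probe sets gave 0.09 and 0.00.

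Among the roles of the members, transition zone genes had the largest share of rises, 5 of 9 (55.6%), against 8.45% of all genes. Of the 14 further transition zone genes described below, 21.4% rose. Cep290, whose product links the ciliary membrane to the microtubules, read 201, 178 and 193 in SF1, against 126, 71.1 and 95.4 in control. Its change, 0.89 ± 0.16 (adjusted p = 0.00685; fold 1.86), was the largest of all members, and its control arrays were also the more spread. B9d1, a gene of the MKS module, read 511, 503 and 526 in SF1, against 295, 302 and 285 in control. That was the lowest adjusted p of the set, 0.000232, with a change of 0.77 ± 0.07.

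The 3 tectonic genes, for membrane-associated proteins of the same module, all rose. Tctn3 read 485, 404 and 443 in SF1, against 292, 320 and 291 in control (0.54 ± 0.09; adjusted p = 0.00547), Tctn3 being one of the genes with an X-box match. Its 2 dim probe sets were not called, and the mean of the 3 had 0.20 (adjusted p = 0.0978). Tctn2 read 211, 191 and 189 in SF1, against 137, 129 and 150 in control (0.46 ± 0.09; adjusted p = 0.00864). Tctn1 read 308, 267 and 330 in SF1, against 221, 253 and 222 in control (0.35 ± 0.10; adjusted p = 0.0491). No SF1 value of the tectonic genes fell within the control range. The Tctn1 call was lost without SF1 replicate 1 or 3 or control replicate 1 or 3 (highest adjusted p over all alternatives 0.142).

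B9d2, the relative of B9d1, read 397, 384 and 434 in SF1, against 297, 352 and 332 in control, a change of 0.30 that missed the threshold (adjusted p = 0.0624). Cc2d2a had 0.08 (interval -0.12 to 0.29), Mks1 -0.07 (-0.26 to 0.11) and Tmem67, whose probe set was dim at 32.7 to 73.3 over all arrays, 0.25 (-0.20 to 0.70).

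**Figure D2:**
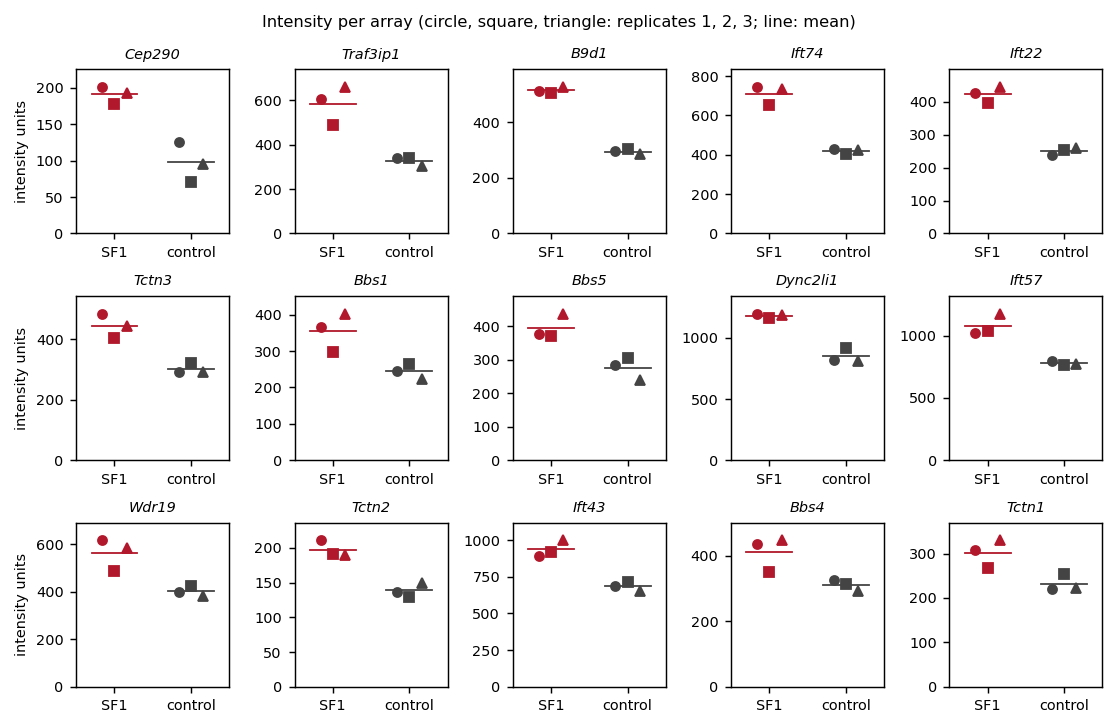
Intensity of the 15 members called higher, on linear axes from 0, with the SF1 arrays left of the control arrays. Circles, squares and triangles are replicates 1, 2 and 3, and lines are group means. The SF1 arrays lie above the control arrays for all 15, and replicate 2 is the lowest SF1 array for 12 of them.

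Whether partners of one complex changed unequally was examined in 8 pairs of gene products known to bind or work together, chosen after their values were seen. For each array the log2 ratio of the 2 genes was taken. It was compared between groups with a two-sided exact permutation test, whose smallest p with 3 against 3 arrays is 0.1. Because the pairs were chosen with these values known, the p-values describe them and cannot show unequal change. The change of Ift74 exceeded that of Ift81 by 0.56, with ratio shifts of 0.65, 0.62 and 0.42 in SF1, against 0.09, -0.15 and 0.06 in control. Traf3ip1 exceeded Ift20 by 0.58, and B9d1 exceeded B9d2 by 0.47. Ttc30b, a gene of IFT70 outside the list, exceeded Ift52 by 0.96. These 4 pairs reached that smallest p (exact permutation p = 0.1; Benjamini-Hochberg adjusted over the 8 pairs 0.2), so none could pass 0.05. The difference was 0.26 for Dync2li1 over Dync2h1 and 0.22 for Ift57 over Cluap1 (exact permutation p = 0.2 each, adjusted 0.267). It was -0.18 for Kif3a over Kif3b (exact permutation p = 0.3, adjusted 0.343) and 0.03 for Ift27 over its partner Hspb11 (exact permutation p = 1, adjusted 1).

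Other ciliary genes were taken in 7 lists. Of 71 measured genes, 16 were called higher (22.5%) and 8 lower (11.3%), against 8.45% and 8.11% of all genes. Of the 8 called lower, 7 were in the signalling list. In the IFT list 3 of 8 rose: Ttc30b (865, 692 and 831 in SF1, against 418, 397 and 343 in control; 1.01, adjusted p = 0.000555), Ttc26, which encodes IFT56 (0.87, adjusted p = 0.00229), and Ttc30a1 (0.70), whose call was lost without any 1 of the SF1 arrays or without control replicate 3 (highest adjusted p 0.064). Lztfl1, a regulator of BBSome traffic, was the 1 riser among 5 further BBS genes (0.45, adjusted p = 0.00592), but the mean of its probe sets was not called (0.16, adjusted p = 0.227). Of 9 further motor genes 4 rose. Among them were the dynein-2 genes Wdr34 (0.73, adjusted p = 0.000847), Wdr60 (0.43) and Tctex1d2 (0.56). Dynlrb2, the fourth, read 1469, 1173 and 2022 in SF1, against 47.2, 51.6 and 39.8 in control (4.63, adjusted p = 4e-06), and its roadblock light chain serves axonemal dyneins too.

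Further transition zone genes gave 3 risers (21.4%) and 1 faller (7.14%) of 14. Rpgr, a GTPase regulator at the ciliary base, read 527, 498 and 561 in SF1, against 257, 233 and 206 in control (1.14, adjusted p = 0.00014). Tmem107, a membrane protein gene of the MKS module, had 0.93 (adjusted p = 0.000505), and 0.61 as the mean of its probe sets. Invs, the gene of inversin, which lines the shaft just beyond the transition zone, fell, with 655, 655 and 679 in SF1, against 850, 889 and 789 in control (-0.34, adjusted p = 0.0233). The Invs call was lost with median centring (adjusted p = 0.0544), with the replicate number as a block (0.0734) and in every fit on 5 arrays but the one without control replicate 3 (0.0561 to 0.077). Of 12 basal body genes, Cep83 alone was called (0.77, adjusted p = 0.000432), a gene of the appendages that dock the basal body, and the mean of its probe sets had 0.46. This 1 call was 8.33% of the list, near the 8.45% of all genes called higher. Of 10 lipid-cargo and GTPase genes 4 rose, led by Unc119 (0.94, adjusted p = 8.31e-05), a chaperone gene for lipid-modified proteins, and Tulp3 (0.79, adjusted p = 0.000559), which brings receptors into cilia together with IFT-A. The mean of the Tulp3 probe sets was not called (0.16, adjusted p = 0.152).

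**Figure D3:**
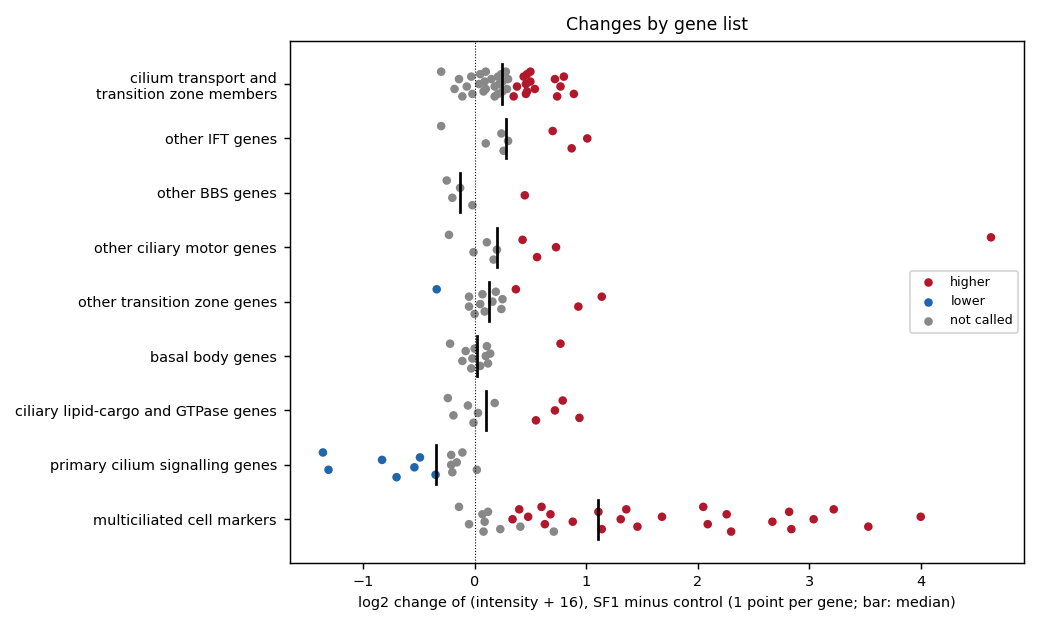
Change of each gene, as SF1 minus control on the log2(intensity + 16) scale, in the 40 members, 7 lists of other ciliary genes and the markers of multiciliated cells. Each point is 1 gene and each bar a list median. The members lie between -0.30 and 0.89, the signalling genes reach down to -1.36 and the multiciliated markers up to 4.00.

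Genes of signalling at the primary cilium were in part lower. Of 13 measured, 0 rose and 7 fell, where 8.11% of all genes were called lower. Ptch1, the Hedgehog receptor gene and itself a Hedgehog target, read 1899, 1650 and 2098 in SF1, against 4894, 5244 and 4399 in control (-1.36, adjusted p = 0.000107). Gli1, a transcription factor gene that Hedgehog signalling induces, read 333, 365 and 463 in SF1, against 947, 997 and 979 in control (-1.31, adjusted p = 0.000182). The groups were far apart for both. Gpr161, a ciliary receptor gene that restrains the pathway, had -0.83 (-0.44 as the mean of its probe sets), Gli2 -0.70 and Gli3 -0.54. Evc (-0.49) and Evc2 (-0.35), for a protein pair at the ciliary base, were called lower too, less firmly. The Evc call was lost without SF1 replicate 1 or 2 (adjusted p = 0.0509 and 0.052), and the mean of its probe sets had -0.31. The Evc2 call was lost with quantile normalization (adjusted p = 0.0603), median centring (0.107), the replicate number as a block (0.0857), a pseudocount of 1 (0.0653) and in every fit on 5 arrays but the one without SF1 replicate 3 (0.0771 to 0.129). Smo, the transducer that enters the cilium, was not called (-0.16, interval -0.33 to 0.02). The cells behind the changes of the members and of the signalling genes were not measured here. At an unadjusted p under 0.05 (limma), 0 signalling genes were higher and 9 lower, against 13.7% and 18.4% of all genes.

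**Figure D4:**
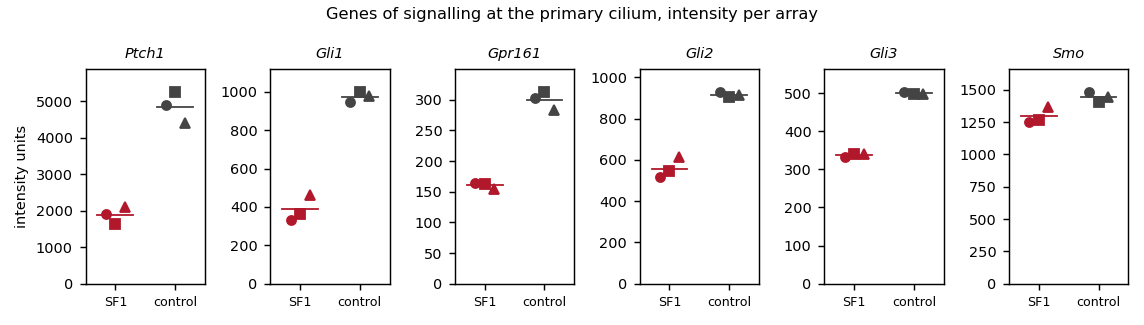
Intensity of 6 genes of signalling at the primary cilium, on linear axes from 0, with the SF1 arrays left of the control arrays. Symbols are replicates 1 (circle), 2 (square) and 3 (triangle), and lines are means. Ptch1, Gli1, Gpr161, Gli2 and Gli3 were lower in SF1, and Smo was not called.

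Most markers of multiciliated cells moved in the same direction as the members. Of 33 measured, 24 rose (72.7%), 0 fell and 9 were not called, with a median change of 1.11. Over all genes, 8.45% were called higher and 8.11% lower. At an unadjusted p under 0.05 (limma), 26 markers were higher and 0 lower, against 13.7% and 18.4% of all genes. Their summed level was 9745 to 13743 in SF1 and 4613 to 5058 in control, and no marker was at 0 on every array. Foxj1, the main transcription factor gene of motile cilia, read 1782, 1726 and 2021 in SF1, against 952, 987 and 1028 in control (0.88, adjusted p = 0.000296). Ak7, an adenylate kinase gene of motile cilia, had 4.00 (adjusted p = 6.88e-06) and Rsph4a, a radial spoke gene, 3.53 (adjusted p = 6.98e-06). A change above 0, seen in 39.4% of all genes, was found in 31 of the 33 markers. The others, Dnaic2 (-0.05) and Ccno (-0.14), were not called. For Ccno all SF1 arrays lay below all control arrays, a pattern seen in 23.7% of all genes. Of the RFX genes, Rfx3 was called higher (0.40, adjusted p = 0.0458) and Rfx2 was not called (0.12, adjusted p = 0.46). The Rfx3 call was lost with the mean of its probe sets (0.13, adjusted p = 0.274), the replicate number as a block (0.0619), a pseudocount of 1 (0.0661) and in every fit on 5 arrays but the one without SF1 replicate 2 (0.0548 to 0.141). Mcidas was not analysed here. The members' changes thus were smaller than the median marker's: the highest, 0.89, lay below 1.11.

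The SF1 arrays differed among themselves in both sets. Replicate 2 was the lowest SF1 array for 12 of the 15 risen members and for 27 of all 40, against 31.6% of all genes and 41.6% of all genes called higher. It was the lowest for 24 of the 24 risen multiciliated markers. Replicate 3 was the highest SF1 array for 9 of the 15 members and 23 of the 24 markers, against 29.1% of all genes and 32.2% of all genes called higher. Since these are 3 arrays of 1 group, the order is a description, and the part of multiciliated cells in the members' changes was not tested. Without SF1 replicate 2, 15 members were called higher.

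**Figure D5:**
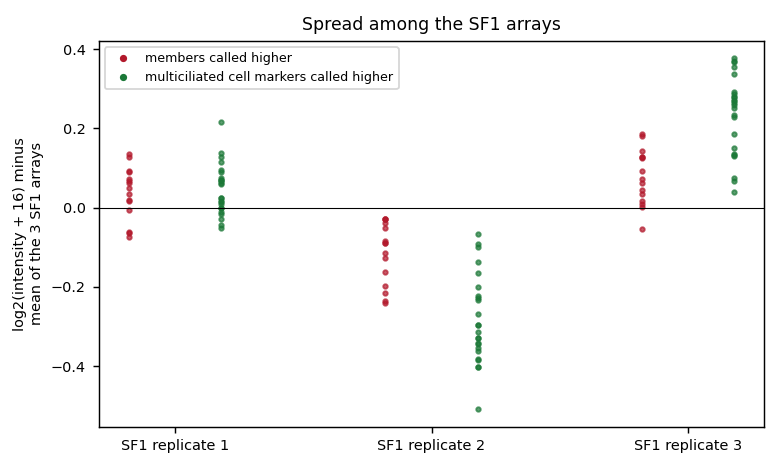
Level of each gene on each SF1 array, as log2(intensity + 16) minus the mean of the 3 SF1 arrays, for the 15 members called higher (red) and the 24 multiciliated markers called higher (green). Each point is 1 gene. Points of replicate 2 lie below 0 for both sets.

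Markers of other cells of the uterus also differed, where 8.45% of all genes were called higher and 8.11% lower. At an unadjusted p under 0.05 (limma) these shares were 13.7% and 18.4%. Of 11 epithelial markers 7 rose and 1 fell, with a summed level of 22099 to 24654 in SF1 and 18192 to 19070 in control. Muc1, a mucin of the epithelial surface (1.93), and Krt7, a keratin gene (1.80), rose most, and Krt19 was called lower (-0.36). Krt8 (0.25), Krt18 (-0.08) and Cldn3 (-0.12) were not called. The Krt19 call was lost with median centring (adjusted p = 0.0552), the replicate number as a block (0.0956), a pseudocount of 1 (0.0533) and without SF1 replicate 1 or 3 or control replicate 1 or 3 (0.0759 to 0.114). Of 12 stromal markers 0 rose and 7 fell (0 and 8 at an unadjusted p under 0.05, limma), with 54434 to 57252 in SF1 and 66857 to 69483 in control. Twist2 (-1.54) and Pgr (-1.34) fell most there, and Pgr is the locus of the Cre allele that the SF1 group alone carried. Vim (-0.02), Col1a1 (0.05), Col3a1 (0.15), Lum (0.06) and Esr1 (-0.19) were the 5 stromal markers not called. All 5 endothelial markers fell (2374 to 2782 in SF1, 3914 to 4003 in control), with Cdh5 (-0.83, and -0.52 as the mean of its probe sets) and Tek (-0.63) falling most. Of 5 immune markers 4 rose (3392 to 5184 in SF1, 1765 to 2449 in control), Cd3g (2.06) and Ptprc (1.01) most. Cd68 (0.30), with overlapping groups, was not called. Of 7 smooth muscle markers 0 were called, and at an unadjusted p under 0.05 (limma) 1 was higher and 1 lower (30665 to 33070 in SF1, 28342 to 31090 in control). Of the 2 measured oviduct markers, Ovgp1 fell (-0.73) and Pax8 was not called (445 to 466 in SF1, 587 to 682 in control, summed). No marker of these lists was at 0 on every array, and their part in the members' changes was not tested.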

How the data were processed

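Per the labels, total RNA of 2 pooled uteri per array was measured on a 1-colour Affymetrix array, with 3 SF1 and 3 control arrays. The authors deposited probe set intensity values on a linear scale, and the sources used here do not name the software behind them or how arrays were scaled. A change of background handling would move dim probe sets most. Of 45101 probe sets, 64 control probe sets were set aside and 45037 tested. A platform annotation gave 34945 of them 1 gene symbol, 932 several and 9160 none, and 0 symbols needed an update through gene ID (GRCm38.p6). A gene was represented by its brightest probe set with 1 symbol. The test was limma 3.58.1 in R 4.3.3 on log2(intensity + 16) (lmFit, eBayes, Benjamini-Hochberg over all tested probe sets), with no filter on low values. The fit was tested on simulated arrays. Nothing in the labels says whether the pools were processed together. The p-values set the group difference against the spread between these pooled arrays, which eBayes moderates over all probe sets. The small number of arrays limits the precision.

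The members, lists and tests were chosen with earlier results of these data known. Named were all members, with array values for those called and for the largest change not called in each role, up to 2 risers and 2 fallers of each other list, and a few regulators (Foxj1, Mcidas, Rfx2, Rfx3, Ptch1, Gli1, Smo). Ttc30a1, Wdr60, Tctex1d2, Gpr161, Gli2, Gli3, Evc, Evc2, Cluap1, Hspb11, Nr5a1, Pax8, Esr1 and the partner pairs were named after their values were seen. The same holds for Ccno, Dnaic2, Vim, Col1a1, Col3a1, Lum, Krt8, Krt18, Cldn3 and Cd68. Alternatives covered scaling, filters, pseudocounts, variance models, probe sets, thresholds and left-out arrays. Figures were drawn with matplotlib 3.10.9.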

Additional observations from a re-analysis of the deposited data

How the results depend on the processing

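Of 15 members called higher, 8 kept the call, at an adjusted p under 0.05, under every alternative fit that tested them: Ift22, Ift74, Traf3ip1, Ift43, Dync2li1, Cep290, Tctn2 and B9d1. The other 7 lost it under at least 1. The count of members called higher was 10 to 15 when 1 array was left out, 13 to 17 under the other settings of scaling, filter, pseudocount, weights, variance model and probe set, 10 at an adjusted p under 0.01 and 5 with a fold of at least 1.5 in addition. The dimmest probe set of each gene, an alternative added after seeing the data, gave 13, but only 14 of the 40 members have several probe sets. By it Ift57 (-0.10), Bbs4 (-0.26) and Tctn3 (-0.02) lost the call, Wdr19 (0.31) kept it and Ift27 (0.42) gained one. Called lower were 0 members under every alternative run. With the replicate number as a block the counts were 10 members, 15 other ciliary genes higher and 6 lower, and 23 multiciliated markers. Arrays of the same number did not deviate together (correlations of deviations -0.06, -0.10 and -0.18). With 3 arrays per group this gave no sign of pairing by number, but it cannot exclude a shared batch. Other ciliary genes called lower, 8 with all arrays, were 5 without SF1 replicate 1, 5 without SF1 replicate 2, 5 at an adjusted p under 0.01 and 4 with a fold of at least 1.5. Leaving out 1 array gave between 5 and 7. Multiciliated markers called higher were 24 as reported, 13 with the filter to brighter probe sets, which tested fewer of them, and 20 to 25 under the other alternatives (21 to 25 with 1 array left out). Some members that were not called changed sign near 0 and were not called there either. Ift140 (-0.02) had 0.02 after quantile normalization, 0.03 after median centring and -0.10 to 0.04 when 1 array was left out. Bbs9 (-0.03) had 0.02 after either scaling. With 1 array left out, Bbs9 had -0.10 to 0.02, Ift52 -0.02 to 0.10, Ttc8 -0.01 to 0.22 and Bbs12 -0.01 to 0.13. The mean of probe sets turned Kif3b to 0.09 and Kif17 to 0.00. The causes were not tested.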

Other observations

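Several members had a second probe set that read differently from the one described. Of the 4 probe sets of Bbs4, the 3 brightest had changes of 0.38, 0.39 and 0.34, of which the first alone was called. The dimmest had -0.26 (adjusted p = 0.0773), with 79.7, 66.5 and 77 intensity units in SF1, against 88.6, 92.9 and 94.9 in control. The dim probe set of Bbs7 read 33.4, 48.1 and 37.9 in SF1, against 47.8, 53.7 and 46.7 in control (-0.24, adjusted p = 0.183). Of 10 measured lipid-cargo and GTPase genes, Pde6d, which encodes a carrier of prenylated proteins, also rose (0.72, adjusted p = 0.00407), as did Rp2, a gene that turns off the ciliary GTPase ARL3 (0.55, adjusted p = 0.0124), while Arl3 itself was not called (-0.01).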
